A study of Neurospora crassa with 8 samples.

Results

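The 6 genes described here are the mating type genes of the mat A locus and the pheromone and pheromone receptor genes of Neurospora crassa: matA-1 (NCU01958), matA-2 (NCU01959), matA-3 (NCU01960), ccg-4 (NCU02500), pre-1 (NCU00138) and pre-2 (NCU05758). They were taken by their locus tags, and all 6 were found among the 9730 genes of the deposited table. The study sequenced poly-A RNA of mycelium (the labels call the tissue germinated conidia) from 4 strains, with 1 library per strain. The libraries labelled ∆pas came from strains N7617 and N7680, both mat a and with the marker nat-1 at pas (NCU04278), a gene that the series describes as coding for an accessory part of the histone H3 lysine 27 methylating complex PRC2. The wild type (WT) libraries came from strains N3752 (mat A) and N3753 (mat a). All 4 cultures were shaken for 16 hours at 32 °C in minimal medium with 1.5% sucrose. No RNA library was labelled both ∆pas and mat A, so N3752 is the only mat A library, and mating type, strain and library cannot be told apart for it.

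Neurospora crassa is haploid and mates only with a partner of the other mating type. Strains of mating type A and a carry unrelated sequence at the same chromosomal place, so a mat a strain has none of the matA genes. The transcription factors coded there govern which pheromone precursor a strain mainly expresses. Hyphae of the partner strain grow towards the pheromone, and its receptor signals through a G protein and a MAP kinase cascade.

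Depth was 14679872 and 13679487 reads in genes in the libraries labelled ∆pas (N7617, N7680) and 7139105 and 10997599 in WT (N3752, N3753). Values are normalized counts, which are reads divided by 1 factor per library. A count of 0 was taken to allow up to 3 reads, the floor, worth 2.35 to 4.84 normalized counts over the 4 libraries. The targeted gene was checked first: pas had 43.1 and 98.1 normalized counts in N7617 and N7680, against 119 and 95.1 in N3752 and N3753, with a log2 difference of -0.70 ± 0.416 (SE; limma adjusted p = 0.371). N7680 lay between the WT libraries. N7617 was below both, but its 55 reads (exact 95% interval 32.5 to 56.1 normalized counts) were far above the floor. The counts of pas thus go against the label of N7680, while N7617 was lower than WT but kept reads of pas. The group is named by its label throughout. Which part of pas the marker replaced is not stated. Reads that fell in no annotated feature made up 13.9% in N7617 and 6.76% in N7680, against 5.41% in N3752 and 15.2% in N3753. Each group thus held a library with a high and a library with a low share, and the part of this share in the results was not tested.

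Of the 6 genes, matA-1 and ccg-4 had nearly all of their reads in N3752. The receptor gene pre-1 was also highest there, pre-2 was not, and matA-2 and matA-3 were at or next to 0 in all 4 libraries. Tests covered the 8219 genes whose mean over the 4 libraries reached 5 normalized counts. Among them N3752 lay above all 3 mat a libraries for 28% and below all 3 for 28.8%. The genes matA-1 and ccg-4 passed this filter through N3752 alone, pre-1 and pre-2 also passed it, and matA-2 and matA-3 did not and were not tested.

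**Figure D1:**
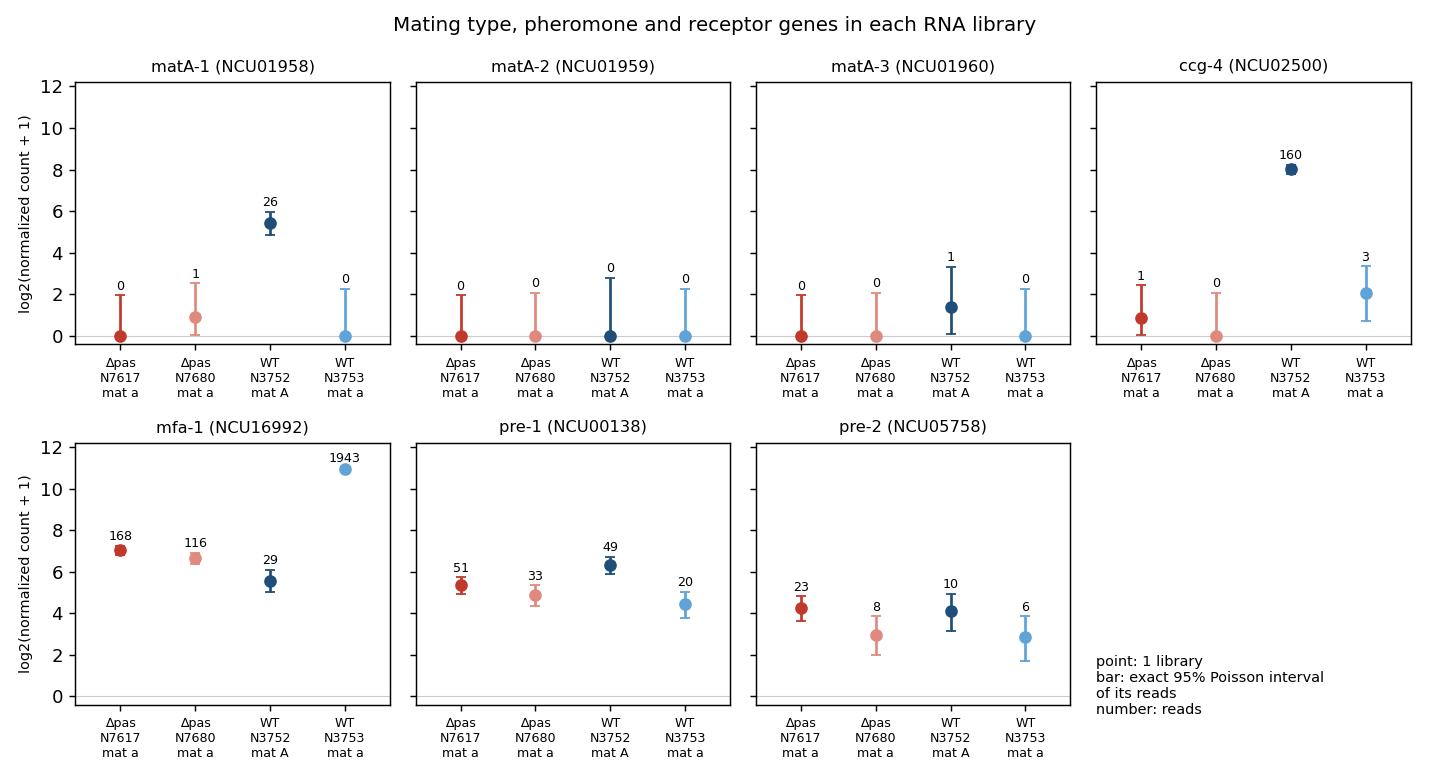
Level of the 6 genes and of mfa-1, the mat a pheromone precursor gene, in each RNA library, as log2(normalized count + 1). Points are libraries, bars are exact 95% Poisson intervals of the reads (counting error only) and the numbers are reads; N3752 stands apart with 26 reads of matA-1 and 160 of ccg-4, and N3753 with 1943 of mfa-1.

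The gene matA-1 codes for the alpha-domain regulator that gives a strain its mat A identity and is needed for mating. It had 42.0 normalized counts in N3752, from 26 reads, against 0 in N3753, 0 in N7617 and 0.86 in N7680, the last from 1 read. The level in N3752 was 13.5 times the floor of 3 reads in N3753 and 17.8 times that in N7617. These 2 values leave out the counting error of the 26 reads, so they are not lower limits. Against the 1 read of N7680 the ratio was 48.8, with an exact 95% interval from the counts alone that starts at 8.01. The reads thus followed the labelled mating types, apart from that 1 read in a mat a library. The genes matA-2 and matA-3, which act in the development of ascospores after fertilisation, could not be used in this way. A single read fell in matA-3, in N3752, and matA-2 had 0 reads in each of the 4 libraries. By the floor of 3 reads this allows up to 4.84 normalized counts in N3752, and the exact 95% interval ends at 5.95.

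Genes beside the mat A locus were read as a comparison. Whether their sequence is the same in the mat A and mat a strains was not checked. Of the 5 measured genes on either side in the annotation, each had at least 39 reads in N3752 and at least 25 in every mat a library. Their log2 differences between N3752 and the mean of the mat a libraries ran from -0.47 to 1.71. N3752 was above all 3 mat a libraries for 2 of these 10 and below all 3 for 4. The upper end of the range was NCU01957, the gene next to matA-1, with 105 normalized counts in N3752 against 27.9, 51.0 and 21.5 in N3753, N7617 and N7680. A neighbour with many reads, eat-5 (NCU01962), differed little, with 5413 in N3752 against 5607, 4698 and 5438 in the same mat a libraries.

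**Figure D2:**
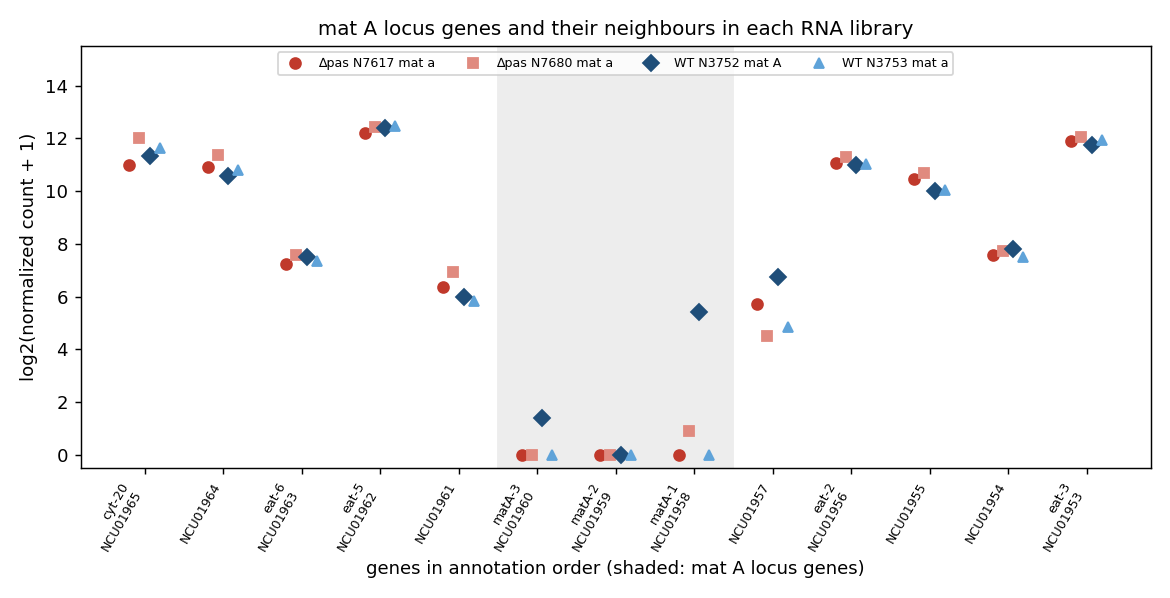
Level of the mat A locus genes (shaded) and of 5 measured neighbours on either side, in annotation order and with no scale of distance, as log2(normalized count + 1) in each library. Neighbours had 25 or more reads in every library, whereas within the locus only matA-1 in N3752 had more than 1 read.

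The pheromone genes differed in opposite directions between the mat A and the mat a WT library. The gene ccg-4 codes for the precursor of the mat A pheromone, and takes its name from its control by the circadian clock. It had 258 normalized counts in N3752, from 160 reads, against 3.1 in N3753, 0.784 in N7617 and 0 in N7680, from 3, 1 and 0 reads. The level in N3752 was therefore 83.3 times that in N3753 (exact 95% interval 28.0 to 408, from the counts alone). It was 100.1 times the floor of N7680, a value that leaves out the counting error of the 160 reads. Its 3 mat a libraries did not overlap with N3752 within their counting intervals, the highest of which ended at 9.06 normalized counts.

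The partner gene mfa-1 (NCU16992), which is not 1 of the 6 and codes for the mat a pheromone precursor, ran the other way in WT. It had 46.8 normalized counts in N3752 against 2008 in N3753, from 29 and 1943 reads, a ratio of 0.0233 (exact 95% interval 0.0156 to 0.0336, from the counts alone). The libraries labelled ∆pas, both mat a, did not share the level of the mat a WT library. N7617 and N7680 had 132 and 99.8 normalized counts, from 168 and 116 reads. These were 0.0656 (0.0557 to 0.0768) and 0.0497 (0.0408 to 0.0599) times the level in N3753, and they lay nearer to the mat A library than to N3753.

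The receptors differed less. The gene pre-1 codes for the receptor with which mat A strains sense the mat a pheromone. It had 79.1 normalized counts in N3752, against 20.7 in N3753, 40.0 in N7617 and 28.4 in N7680, from 49, 20, 51 and 33 reads. N3752 was 3.83 times N3753 (exact 95% interval 2.23 to 6.79, from the counts alone), 1.98 times N7617 (1.31 to 2.99) and 2.79 times N7680 (1.76 to 4.47). The gene pre-2 codes for the receptor of mat a strains for the mat A pheromone. It was not higher in the mat a libraries: N3752 had 16.1 normalized counts, against 6.2 in N3753, 18.0 in N7617 and 6.88 in N7680. These came from 10, 6, 23 and 8 reads, and N3752 was 2.6 times N3753 with an interval of 0.857 to 8.71. At this depth no order of the pre-2 levels by mating type was detectable. Among the mat a libraries, N7617 was 2.91 times N3753 for pre-2 (1.15 to 8.73) and 1.93 times for pre-1 (1.13 to 3.43). For N7680 over N3753 these ratios were 1.11 (0.338 to 3.88) and 1.37 (0.765 to 2.53). Both receptor comparisons are limited by this spread.

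**Figure D3:**
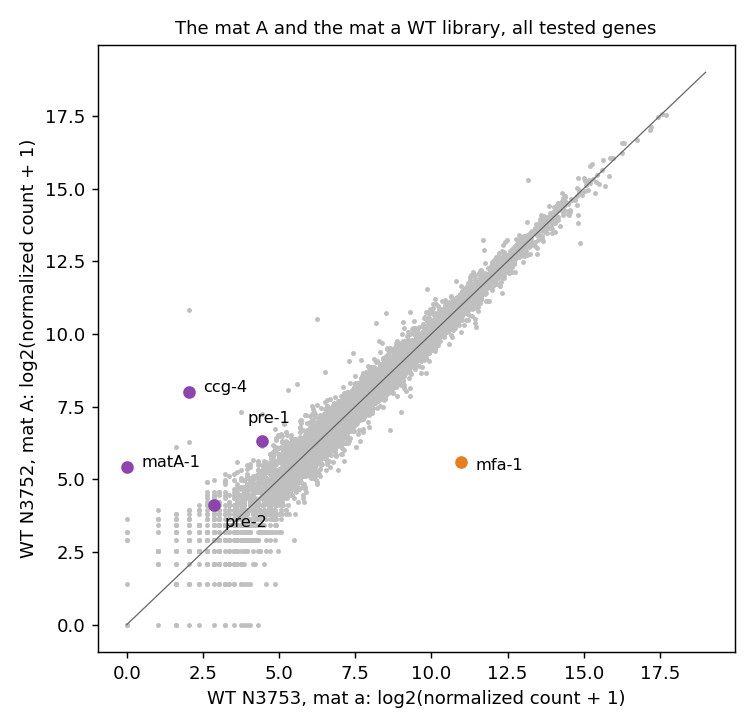
Level of every tested gene in the mat A WT library (N3752, vertical) against the mat a WT library (N3753, horizontal), both as log2(normalized count + 1), with the line of equal values. The genes ccg-4, matA-1 and pre-1 lie above the line and mfa-1 furthest below it. The gene pre-2 lies 1.25 above the line, among genes with few reads. The unlabelled point highest above the line on the left is NCU09968.

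Mating type was then tested across all genes, with genotype as a second term. In this fit the difference between mat A and mat a is that between N3752 and N3753, while the error comes from the pair labelled ∆pas and from the spread of all genes, so each WT library is assumed to vary like that pair. The log2 difference was 5.42 ± 1.12 for matA-1, 5.98 ± 0.889 for ccg-4, 1.89 ± 0.523 for pre-1 and 1.25 ± 0.886 for pre-2 (SE). The fitted values of matA-1 and ccg-4 depend on the pseudocount, because their mat a reads are at or under the floor. For mfa-1 it was -5.39 ± 0.375, the lowest of the 8219 genes. With mating type as the only term, which sets N3752 against all 3 mat a libraries, mfa-1 was at -2.65 ± 1.66 (SE; limma adjusted p = 0.812), since the libraries labelled ∆pas were low too. In that fit matA-1 was at 5.13, ccg-4 at 7.06, pre-1 at 1.43 and pre-2 at 0.74. In the fit with both terms the highest difference was not that of a member but that of NCU09968, at 8.80 ± 3.64 (SE; limma adjusted p = 1), so a wide gap between the WT strains was not particular to the mating genes. NCU09968 had 1824 normalized counts in N3752, against 3.1 in N3753, 1.57 in N7617 and 637 in N7680. It did not follow the labelled mating type, since the mat a library N7680 was high and the other mat a libraries were at or under the floor of 3 reads. None of the 8219 genes passed an adjusted p of 0.05 with limma, 0% in either direction, although 60 were higher and 61 lower at an unadjusted p under 0.05. Unadjusted p-values from limma were 0.00506 for matA-1, 0.00125 for ccg-4, 0.0164 for pre-1, 0.219 for pre-2 and 3.74e-05 for mfa-1, with adjusted p-values of 1 for the 4 members and 0.308 for mfa-1. On the recovered reads, edgeR also called 0 genes, with 41 higher and 39 lower at an unadjusted p under 0.05. DESeq2 on the same reads called 1 gene higher and 1 lower, each 0.0122% of those tested: ccg-4, with a log2 difference of 6.38 and an adjusted p = 0.000595, and mfa-1, with -5.42 and an adjusted p = 2.95e-18. Neither these calls nor the limma p-values are support for a difference between mating types, since each arm is 1 WT library. The genes matA-1 and ccg-4 were tested only because they were high in N3752, and mat a strains have no matA-1.

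The genes whose pattern was most like that of ccg-4 and matA-1 were looked for by the gap on the log2 scale between N3752 and the highest mat a library. Over 8189 genes with at least 10 reads in some library, ccg-4 had the widest gap, at 5.98, and matA-1 the next, at 4.53, while pre-1 was at rank 47 with 0.97. These 2 were also the only genes with at least 10 reads in N3752 and at most 3 in every mat a library. Both passed the filter of 10 reads through N3752 alone, the library in which the gap is measured. Their ranks and this count are therefore a description and no support for a difference between mating types. The mirror pattern, at most 3 reads in N3752 and at least 10 in every mat a library, was found for 23 genes. Outside the members the widest gaps were those of NCU02022 (2.96), NCU05980 (2.57), NCU02042 (1.72), NCU02910 (1.57) and NCU09424 (1.54). NCU02022 had 67.8 normalized counts in N3752 against 2.07, 7.84 and 7.74 in N3753, N7617 and N7680. It lies 64 genes from the mat A locus in the annotation, and NCU02042 lies 85 genes from it. On the same chromosome ccg-4 lies 171 genes away and NCU02910 lies 1755 away, while NCU05980 and NCU09424 are not listed on it. In the other direction the widest gaps were smaller than those of ccg-4 and matA-1. They belonged to NCU06072 (3.95), NCU08735 (3.74), NCU07028 (3.21), NCU03183 (3.13) and NCU01631 (2.98), each with 0 reads in N3752. Because N3752 was also the library with the fewest reads, such gaps of low genes are uncertain. These patterns rest on 4 libraries and 1 mat A strain and were not tested.

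The comparison that the study names, ∆pas against WT, gave no call among the 6 genes. At an adjusted p under 0.05, limma called 0.28% of the 8219 tested genes higher and 0.0852% lower in ∆pas, and 0 of the 4 tested members. The mean of ccg-4 was 0.392 ± 0.555 in the libraries labelled ∆pas and 131 ± 180.4 in WT (SD, n = 2 each). Its log2 difference of -4.61 ± 1.8 (SE; limma adjusted p = 0.214) was the lowest of all tested genes, yet the WT mean is that of N3752 alone, and N3753 was at 3 reads. For matA-1 the log2 difference was -2.26 ± 1.76 (SE; limma adjusted p = 0.492), with the same dependence on N3752. For pre-1 the means were 34.2 ± 8.21 in the libraries labelled ∆pas and 49.9 ± 41.3 in WT, and for pre-2 they were 12.5 ± 7.89 and 11.2 ± 7.03 (SD, n = 2 each). Both libraries labelled ∆pas lay between the WT libraries for pre-1, and the groups overlapped for pre-2. The log2 differences were -0.26 ± 0.628 and 0.14 ± 0.695 (SE; limma adjusted p = 0.836 and 0.93).

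With the labelled mating type as a second term, the comparison sets the libraries labelled ∆pas against N3753, so that all 3 libraries are mat a. The log2 difference of pre-1 was then 0.68 ± 0.453 and that of pre-2 0.77 ± 0.767 (SE), with limma adjusted p-values of 0.713 and 0.794, and the sign of pre-1 was turned. That of ccg-4 was -1.62 ± 0.769 (SE; limma adjusted p = 0.632), from 1, 0 and 3 reads, which is at or under the floor in all 3 libraries. For mfa-1 the log2 difference was -4.12 ± 0.325 (SE), the lowest of the 8219 genes, with an unadjusted p of 6.79e-05 and a limma adjusted p = 0.165. Without mating type as a term it was -1.42 ± 1.53 (SE; limma adjusted p = 0.621), with means of 116 ± 22.6 in the libraries labelled ∆pas and 1028 ± 1387 in WT (SD, n = 2 each). No gene was called in the fit with mating type, 0% in either direction, while 350 were higher and 332 lower at an unadjusted p under 0.05. Both libraries labelled ∆pas were thus far below N3753 for mfa-1, but the mat a WT level rests on this 1 library. Between the pair with many reads outside features, N7617 minus N3753, the log2 difference of mfa-1 was -3.92, and between the other pair, N7680 minus N3752, which also differs in mating type, it was 1.08. For pre-1 these values were 0.92 and -1.45, and for ccg-4 they were -1.20 and -8.02.

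A list of 20 genes, drawn up as carrying or regulating the pheromone signal, was followed, and all were tested. NCU00154 entered it as sub-1, a symbol that the annotation gives to NCU01154, so its place in the list is not borne out. In the libraries labelled ∆pas against WT limma called 0 of the 20 in either direction, and 9 lay above 0 and 11 below. Their median log2 difference was -0.06, against 0.03 over all tested genes. At an unadjusted p under 0.05 with limma 2 were higher and 1 lower, against 10.2% and 11.1% of all tested genes, so the list was no richer in such genes than the rest. The 3 are given as a description. The transcription factor gene adv-1 (NCU07392), needed for cell fusion and sexual development, had 12792 and 15161 normalized counts in N7617 and N7680, against 6895 and 9719 in N3752 and N3753, a log2 difference of 0.77 ± 0.21 (SE; limma adjusted p = 0.122). The regulator gene vib-1 (NCU03725) had 5144 and 5553 in the libraries labelled ∆pas against 4169 and 3898 in WT, a log2 difference of 0.41 ± 0.144 (SE; limma adjusted p = 0.186). The G protein alpha subunit gene gna-1 (NCU06493), which acts downstream of the pheromone receptors, had 1978 and 1655 in the libraries labelled ∆pas against 2711 and 2522 in WT, a log2 difference of -0.53 ± 0.16 (SE; limma adjusted p = 0.141). The groups did not overlap for these 3 genes, and none passed the threshold. Of all tested genes, 29.5% had both libraries labelled ∆pas above both WT libraries and 26.5% had both below, so the absence of overlap is common in this design.

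The other G protein subunit genes, gna-2, gna-3, gnb-1 and gng-1, had log2 differences between -0.36 and -0.07. The 7 genes of the MAP kinase cascade and its output, stk-4, ty-1, nrc-1, mek-2, mak-2, ham-5 and pp-1, had values between -0.27 and 0.30 and a median of 0.02. Against mating type with genotype as a term, mfa-1 was the single gene of the list with an unadjusted p under 0.05 in limma, and 0 were called. With mating type as the only term the limma p of mfa-1 was 0.166 and that of adv-1 was 0.0403, at -0.84 ± 0.317 (SE), and 0 were called again. In the fit with both terms the next lowest p-values belonged to ham-5 (NCU01789), a scaffold of the MAP kinase cascade, at -0.91 ± 0.354, and adv-1, at -0.50 ± 0.274 (SE; limma adjusted p = 1 for both). The gene ham-5 had 805 normalized counts in N3752 against 1518, 1194 and 833 in N3753, N7617 and N7680, so the mat A library was close to N7680.

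**Figure D4:**
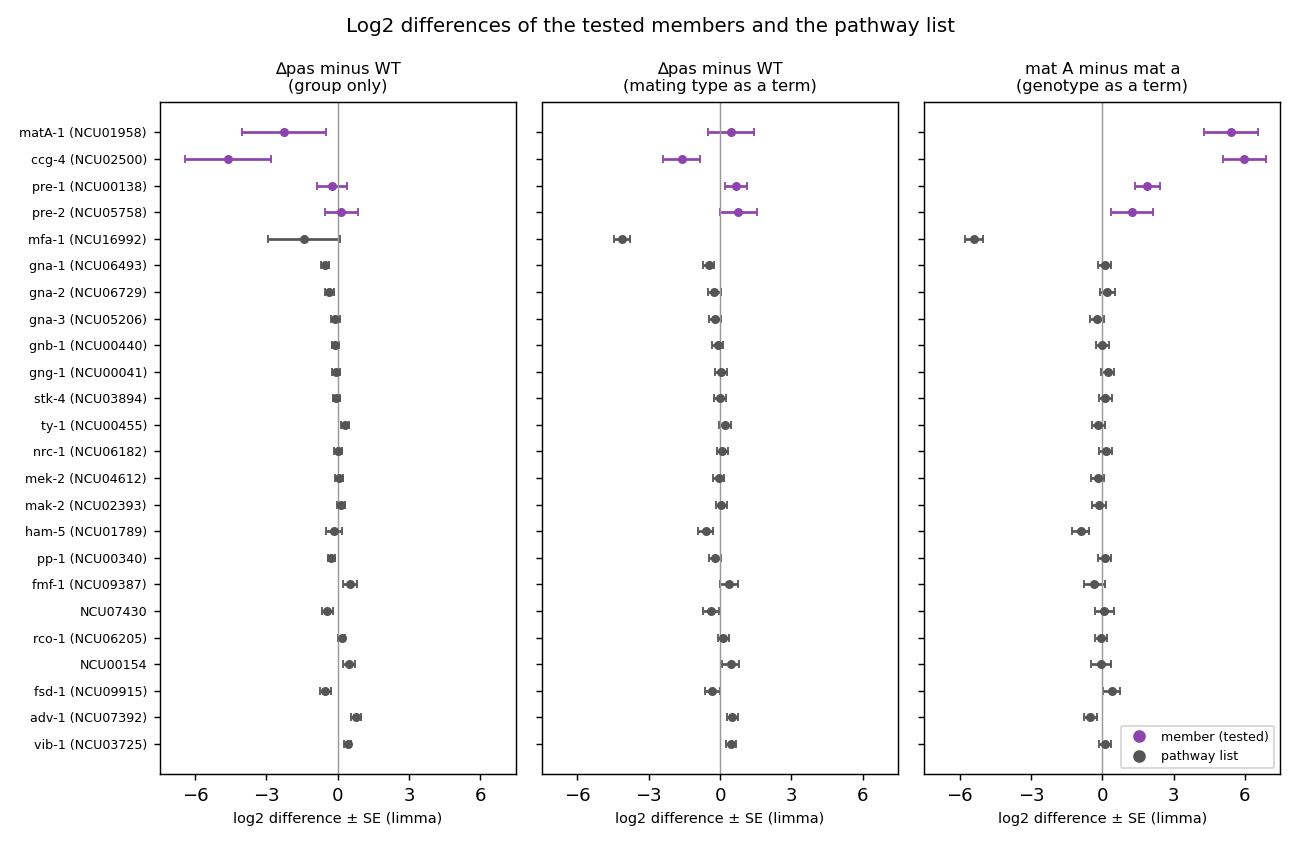
Log2 differences with limma's standard errors for the 4 tested members and the 20 genes of the pathway list. The panels give ∆pas minus WT, the same with mating type as a term, and mat A minus mat a; outside the members and mfa-1, values stayed between -0.91 and 0.77.

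The study also set its data against a deletion of set-7, the gene of the catalytic subunit of PRC2. Only the authors' own fold changes were used for it, with the sign turned to mutant over WT. The comparisons share WT libraries, and the tables do not state how mating types were balanced. For ∆set-7 the authors' deposited table gave log2 fold changes of -0.49 ± 0.524 for matA-1, -0.47 ± 0.496 for pre-1 and 0.55 ± 0.494 for pre-2 (SE), with adjusted p-values of 0.669, 0.663 and 0.597. For ∆pas the authors' deposited table gave -0.86 ± 0.525 for matA-1, -0.90 ± 0.495 for pre-1 and -0.06 ± 0.493 for pre-2 (SE), with adjusted p-values of 0.581, 0.515 and 0.981. In the authors' deposited table ccg-4 was at -1.32 ± 0.529 for ∆set-7 and -1.32 ± 0.53 for ∆pas, and mfa-1 at -0.88 ± 0.568 and -0.91 ± 0.568 (SE). Neither of these pheromone genes has a p-value there. Other libraries entered the authors' fit and its estimator is not stated, so these sizes are not set against those fitted here.

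In the order of genes along the chromosomes, pre-2 was 153 genes from the nearest chromosome end, the matA genes 449 to 451, pre-1 590 and ccg-4 608. In this fungus the mark laid down by PRC2 is known to cover regions near chromosome ends in particular. The chromatin libraries of the series were not analysed here, so no level of the mark at these genes is given.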

How the data were processed

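Poly-A RNA was measured in 4 libraries of the 8 samples; the 4 chromatin libraries were not analysed here. The authors deposited normalized read counts per gene, a signal that is never negative. Bowtie2, DESeq2 and deepTools are named in the submitters' processing notes without a role; the counter, annotation and genome build are not given in the sources used here, nor is it stated whether counting used strand. For 100% of gene values in each library the deposited value was a whole multiple of 1 step (within 0.01 reads, growing in proportion above 1000 reads), so reads were recovered by division. Another 4 columns there match no sample of this series and were not used. The 4 summary entries of the counter, at 12.1% to 22.0% of reads, were left out. The deposited comparison tables hold, per the file headers, a log2 fold change (WT over mutant, judged from set-7), its standard error, a Wald score, p-values and a mean signal.

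Genes whose mean reached 5 normalized counts were tested with limma 3.58.1 in R 4.3.3 on log2(normalized count + 1) with an intensity trend, two-sided, with Benjamini-Hochberg adjustment over the 8219 genes tested. Residual degrees of freedom were 2 with the group alone and 1 with mating type, with 4.34 and 3.83 prior ones. The recovered reads were also tested with edgeR 4.0.16 and DESeq2 1.42.0, and the limma fits were tested on simulated data. The series' design text calls the libraries of a group biological replicates, and each came from its own strain. Replicates were numbered in sample order: N3752 and N3753 are WT replicates 1 and 2, N7617 and N7680 those labelled ∆pas. Exact Poisson and binomial intervals (95%) and the floor of 3 reads cover counting error only, since these values carry no molecular identifiers.

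All 27 locus tags used were found in the RefSeq gene table of assembly NC12, taken for names and gene order only; no coordinates or sequences are given. Genes that table gives no symbol are called by their ID. Named were all members, the list genes called or with the 3 lowest p-values, the 5 widest gaps in each direction and the 5 nearest neighbours on each side; NCU01957, NCU09968, eat-5 and the other list genes were named after their values were seen. Members and lists were chosen with earlier results of these data known.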

Additional observations from a re-analysis of the deposited data

How the results depend on the processing

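Each result was recomputed with pseudocounts of 0.5 and 5, other filters and scalings, no intensity trend, edgeR, DESeq2, a library left out and the mating type term added or dropped. Of 116 recomputed log2 differences of single genes, 107 kept their direction and side of the threshold, 2 were called only with DESeq2 (ccg-4 at 6.38 and mfa-1 at -5.42, mat A minus mat a) and 7 turned sign, all in ∆pas minus WT. With mating type as a term matA-1 was 0.45 and pre-1 0.68. Leaving out WT replicate 1 gives the same 0.45 and 0.68 by construction, since that term fits N3752 alone. These settings are thus not separate checks, although both enter the 116 values and the 7 turned signs. For pre-2 the value was -0.48 without WT replicate 2 and -0.50 without ∆pas replicate 1, and for mfa-1 1.27 without WT replicate 2. Over all libraries left out in turn, matA-1 ran from -4.98 to 0.45, pre-1 from -1.21 to 0.68, pre-2 from -0.50 to 0.78, mfa-1 from -4.12 to 1.27 and ccg-4 from -7.60 (without N3753) to -1.62 (without N3752). With edgeR and DESeq2 mfa-1 was -3.17 with both and ccg-4 was -7.90 and -8.35. No alternative called a member in ∆pas minus WT; the lowest adjusted p was 0.0584, for ccg-4 with DESeq2. Over all genes, 23 were higher and 7 lower. With no filter beyond 1 read these counts were 15 and 3, no trend 7 and 0, DESeq2 259 and 347, median-ratio scaling 27 and 11, and mating type as a term 0 and 0. Leaving out 1 library gave 0 to 518 higher and 0 to 585 lower: 0 and 0 without either WT library, 518 and 585 without N7617, and 29 and 18 without N7680. In the pathway list DESeq2 called 1 gene (adv-1), and leaving out 1 library gave 0 to 5 calls. These 5, without ∆pas replicate 1, were gna-1 and fsd-1, NCU07430, NCU00154 and adv-1. In mat A minus mat a DESeq2 called 1 gene higher and 1 lower, 1 member and 1 of the list, against 0 otherwise. The cause of these shifts was not tested. TMM and median-ratio scaling moved the median log2 difference of all genes by under 0.1. Leaving out libraries was not possible for mat A minus mat a, where no residual degrees of freedom or no mat A library would remain. No paired analysis was possible because the labels give strain names only and no number that joins a WT with a ∆pas library. Few reads limit matA-2, matA-3 and pre-2.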
